A study of Mus musculus with 9 samples.

Results

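The genes described here encode the proteasome and the enzymes that attach ubiquitin to proteins or take it off. They were taken from the expression table by gene symbol among protein-coding genes of GENCODE M21: symbols beginning with Psma to Psmg (proteasome subunits and their helpers), Uba or Ube (activating and conjugating enzymes, with a few ligases), Cul, Fbx, Rnf or Ubr (ligases) and Usp, Otub or Otud (deubiquitinases). The immunoproteasome subunits Psmb8, Psmb9 and Psmb10 and the interferon-induced deubiquitinase Usp18 were left out of the list. Of 336 annotated genes that met this rule, 122 were among the 5301 genes of the table. The rule itself uses symbols and no measured value. They comprised 22 proteasome genes, 14 activating (E1) and conjugating (E2) enzymes, 62 ligases (E3) and 24 deubiquitinases.

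RNA-seq was performed on 6DT1 cells, a mouse mammary tumor line that came from an MMTV-Myc tumor and is syngeneic to FVB/NJ mice. The question was what depletion of RESF1, the protein encoded by Resf1, does to transcription in these cells. Cells labelled wildtype in genotype were transduced with lentivirus carrying a scramble hairpin (shControl) or 1 of 2 shRNAs against Resf1, H4 (shH4) or H6 (shH6), and all of them grew in 10 ug/ml puromycin. Each group held 3 libraries of total RNA, from dishes seeded at equal density and collected the day after seeding. Each hairpin was represented by a single transduced line, so the 3 libraries of a group measure the spread between dishes and not between transductions.

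Ubiquitin is a small protein that an E1 enzyme activates, an E2 enzyme carries and an E3 ligase joins to a chosen substrate, while deubiquitinases remove it. Proteins that carry ubiquitin chains are unfolded by the 19S regulatory particle, which holds a ring of ATPases and a set of non-ATPase subunits, and are cut inside the 20S core, a barrel of alpha and beta rings. In dividing tumor cells the system is best known for timed destruction of cell cycle regulators and of short-lived transcription factors such as Myc.

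The table was not a full transcriptome. Each of its 5301 genes had the same sign in shH4 as in shH6, so a high share of called genes against shControl was a property of the table. It listed 36.3% of the annotated genes of this pathway and 21.2% of all annotated protein-coding genes (4663 of 22028). Depth, estimated from the steps of the values as reads falling in the table's genes, was 10.5 to 19.9 M per library. Resf1 itself was at 1591, 1553 and 1610.0 normalized counts in the shControl libraries, 976, 953 and 1016 in those of shH4 and 1120.0, 1113 and 1130.2 in those of shH6. The target fell by 0.69 on the log2 scale in shH4 and by 0.50 in shH6, with no overlap between the KD and the shControl libraries. The epithelial keratins Krt8 and Krt18, which are the 2 listed of 8 luminal epithelial markers, summed to between 26584 and 28996 normalized counts in shControl, 22386 and 23863 in shH4, and 24795 and 27873 in shH6. Cd68, Itgb2 and Cd14, the listed 3 of 7 macrophage and leukocyte markers, summed to between 3948 and 4124 in shControl, 2765 and 2920 in shH4, and 3210 and 3422 in shH6. The 2 listed endothelial markers of 4, Cdh5 and Pecam1, summed to 20.2 to 30.7 in shControl, 173 to 208 in shH4 and 26 to 31 in shH6. Pdgfra, the 1 listed of 7 fibroblast markers, ran from 69.7 to 108 in shControl, 119 to 162 in shH4 and 128 to 157 in shH6, and no basal (of 4) or adipocyte (of 3) marker was listed. The part of these markers in the differences below was not tested. In bulk RNA, fewer cells of one kind and less RNA per cell cannot be told apart.

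More of the pathway genes were higher than lower after Resf1 KD, and the classes differed in how their members were divided. In shH4, 79 of 122 genes were higher and 38 were lower than in shControl by limma with Benjamini-Hochberg adjustment over all 5301 genes (adjusted p under 0.05), 117 in all, where the table as a whole had 95.7% called, 49.2% higher and 46.5% lower. In shH6, 77 were higher and 41 were lower, 118 in all, against 96.1% of the table called, 49.1% higher and 46.9% lower. The sign was positive for 65.6% of the pathway genes and for 51.2% of all listed genes. Both hairpins passed the test upward for 76 genes and downward for 37, beside 47.2% (2503) and 44.6% (2362) of all listed genes, and the other 9 passed in 1 hairpin. The KD libraries lay wholly above the shControl libraries in 73 of the 122 genes and wholly below in 39, against 43.5% and 42.8% of the table. Under a stricter rule, which also asked that the 6 KD libraries lie wholly on one side of the 3 shControl libraries and that the mean level reach 100 normalized counts, 70 pathway genes (57.4%) were higher and 33 (27%) were lower, against 40.0% and 36.0% of all listed genes. These contrasts share the shControl libraries, so the hairpins are not independent of each other. Adjustment was made within the table's selected genes, so against shControl it changed p-values little and does not allow for the selection. For Ubb in shH4, described below, the limma p was 0.0464 before and 0.0485 after adjustment. With the libraries scaled to equal upper quartiles, the pathway genes were divided into 52 higher and 41 lower in shH4 and 50 and 42 in shH6, and the table into 2041 and 2575, and 2133 and 2574. Under that scaling and equal column totals, each class kept its number of genes with a positive sign against shControl. So did the F-box, RING finger and cullin genes and the listed subunits of the regulatory particle. The other groups below, and the genes outside the list, were not counted under these scalings.

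The changes were small. Over the 122 genes the typical size of change was 1.16-fold (median, shH4) and 1.17-fold (shH6), against 1.2-fold and 1.21-fold over the table. Class medians of the log2 fold change, shH4 first, were 0.15 and 0.16 for the proteasome genes, 0.12 and 0.12 for E1 and E2 enzymes, 0.12 and 0.11 for ligases and 0.17 and 0.18 for deubiquitinases, beside 0.096 and 0.088 for all listed genes. With equal upper quartiles they were 0.091 and 0.11, 0.062 and 0.072, 0.056 and 0.058, and 0.11 and 0.13 in that order, and 0.034 and 0.036 for all listed genes. The sign was positive for 19 of 22 proteasome genes, 10 of 14 E1 and E2 enzymes, 34 of 62 ligases and 17 of 24 deubiquitinases. Among the ligases the F-box genes stood on the other side, with 17 of 25 negative and medians of -0.23 and -0.26.

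**Figure D1:**
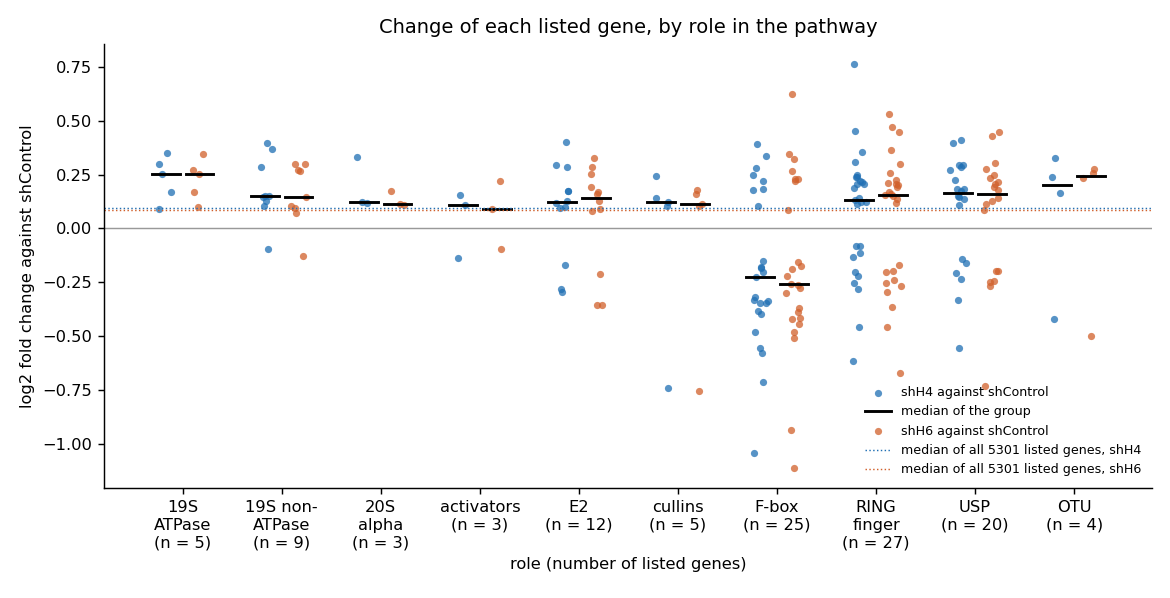
Log2 fold change against shControl (vertical axis) for each listed gene, by role in the pathway (horizontal axis, with the number of genes), where blue points are shH4, orange points are shH6, black bars are group medians and dotted lines are the medians of all 5301 listed genes. The 5 ATPases of the 19S particle all lie above 0, and the F-box medians lie at -0.23 and -0.26, below those of the other roles drawn.

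The 19S regulatory particle was the part of the proteasome best represented in the table. It held 5 of 6 ATPase genes and 9 of 11 non-ATPase genes, but 3 of 8 genes of the 20S alpha ring and none of 8 genes of the beta ring, and the unlisted subunits were not analysed here. Of the 14 listed 19S subunits, 13 rose in both hairpins and Psmd8 fell, beside 47.2% of the table rising and 44.6% falling in both. With equal upper quartiles 10 of the 14 were called higher in shH4 and 9 in shH6. All 22 listed proteasome genes passed the test in both hairpins, where 95.7% and 96.1% of the table did, so the passing itself is no result about them. Under upper quartile scaling 13 were called higher and 3 lower in shH4, and 11 and 3 in shH6.

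The proximal promoter of 5 of these genes is shown because they moved in opposite directions and because cells are known to set proteasome genes as a group. The windows come from RefSeq (GRCm38.p6) and run from 250 bases before to 50 bases after the annotated start, 5′ to 3′ on the gene's strand. Capitals mark matches, on either strand, to 5 motifs: the ETS core CCGGAAG, the CCAAT box CCAAT, the antioxidant response element core TGACNNNGC, the E-box CACGTG and the cyclic AMP response element TGACGTCA. Psmc4, Psmd2, Psmd6 and Psmd12 rose in both hairpins, and Psmd10 fell.
Psmc4, chr7:28050043-28050342, minus strand: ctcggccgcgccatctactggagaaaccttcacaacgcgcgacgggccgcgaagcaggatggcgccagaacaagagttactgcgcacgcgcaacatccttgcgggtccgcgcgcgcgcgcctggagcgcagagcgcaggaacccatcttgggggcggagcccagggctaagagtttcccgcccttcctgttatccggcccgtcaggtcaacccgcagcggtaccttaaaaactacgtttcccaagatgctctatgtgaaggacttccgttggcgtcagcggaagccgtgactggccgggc
Psmd2, chr16:20651402-20651701, plus strand: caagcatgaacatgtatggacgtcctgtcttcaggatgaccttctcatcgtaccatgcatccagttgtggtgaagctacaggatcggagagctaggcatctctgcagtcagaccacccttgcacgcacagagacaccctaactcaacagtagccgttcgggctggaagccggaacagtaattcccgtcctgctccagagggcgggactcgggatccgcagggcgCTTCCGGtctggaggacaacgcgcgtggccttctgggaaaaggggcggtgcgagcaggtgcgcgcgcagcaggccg
Psmd6, chr14:14120896-14121195, minus strand: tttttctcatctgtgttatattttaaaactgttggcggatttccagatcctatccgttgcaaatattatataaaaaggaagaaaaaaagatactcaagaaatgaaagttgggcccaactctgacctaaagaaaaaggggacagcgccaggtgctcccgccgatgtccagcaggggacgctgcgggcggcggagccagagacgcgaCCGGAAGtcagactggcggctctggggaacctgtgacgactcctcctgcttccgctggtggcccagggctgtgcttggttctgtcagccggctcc
Psmd12, chr11:107479278-107479577, plus strand: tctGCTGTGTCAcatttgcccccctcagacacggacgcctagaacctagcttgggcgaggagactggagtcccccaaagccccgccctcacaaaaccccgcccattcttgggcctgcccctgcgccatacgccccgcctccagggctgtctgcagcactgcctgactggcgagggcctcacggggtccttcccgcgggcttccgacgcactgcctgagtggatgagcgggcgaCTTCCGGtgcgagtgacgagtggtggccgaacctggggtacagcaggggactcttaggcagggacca
Psmd10, chrX:140956662-140956961, minus strand: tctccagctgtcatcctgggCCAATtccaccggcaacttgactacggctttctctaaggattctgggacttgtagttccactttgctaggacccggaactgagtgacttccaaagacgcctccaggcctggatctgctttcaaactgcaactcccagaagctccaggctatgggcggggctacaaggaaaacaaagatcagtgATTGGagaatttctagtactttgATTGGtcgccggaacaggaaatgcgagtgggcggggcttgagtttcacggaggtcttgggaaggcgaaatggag
In these windows the ETS core began at -26 from the start in Psmd2, at -45 in Psmd6 and at -17 in Psmd12. Psmd12 also held the antioxidant response element core, at -247. The Psmd10 window held 3 CCAAT boxes and no ETS core, and the Psmc4 window held none of the 5 motifs. The windows of Psma3 and Psmd14, not shown, also held 3 CCAAT boxes and no ETS core, and both genes rose. RefSeq windows matched 96 of the 122 genes by symbol, among them 19 of the 22 proteasome genes. The ETS core was found in 9 of those 19 (47.4%), in 20.4% of 3765 listed genes with a window and in 9.93% of 27025 genes with a window. The CCAAT box was found in 6 of 19 (31.6%, against 44.0% and 41.1%), the antioxidant response element core in 2 (10.5%, against 16.9% and 14%), the E-box in 2 (10.5%, against 12% and 8.09%) and the cyclic AMP response element in 0 (against 3.9% and 2.03%). These are matches of letters, and binding was not measured. A link between these motifs and the direction of change was not tested.

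Psmc4, an ATPase of the ring that unfolds substrates, rose most among the proteasome genes by its smaller change, and it was at 1306, 1465 and 1307 normalized counts in the shControl libraries, 1753, 1719.9 and 1717 in those of shH4 and 1700.5, 1667 and 1817 in those of shH6. Psmc4 (ENSMUSG00000030603) was higher in all 6 KD libraries than in any shControl library. It differed from shControl by 0.35 (SE 0.050, adjusted p = 1.39e-05) for shH4 and 0.35 (SE 0.050, adjusted p = 1.4e-05) for shH6 on the log2(value + 1) scale. Psmd3, a subunit of the 19S lid, was at 2611, 2921 and 2863 normalized counts in the shControl libraries, 3574, 3616 and 3647 in those of shH4 and 3442, 3311 and 3565 in those of shH6. Psmd3 (ENSMUSG00000017221) again separated the KD from the shControl libraries, and its 3 shH6 libraries lay below its 3 shH4 libraries. Its log2 fold change was 0.37 (SE 0.043, adjusted p = 1.92e-06) for shH4 and 0.30 (SE 0.043, adjusted p = 1.57e-05) for shH6, and the difference between hairpins did not pass the test (adjusted p = 0.372). Psmc5, another ATPase of the ring, was at 1467, 1621 and 1601 normalized counts in the shControl libraries, 1974, 1945 and 1845 in those of shH4 and 1852, 1905 and 1902 in those of shH6. Psmc5 (ENSMUSG00000020708) rose by 0.30 (SE 0.045, adjusted p = 2.61e-05) for shH4 and 0.27 (SE 0.045, adjusted p = 5.8e-05) for shH6, with no overlap between the KD and the shControl libraries.

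The other 3 listed ATPases rose by less than Psmc4 and Psmc5. Psmc2 was at 1858, 2090.0 and 1854 normalized counts in the shControl libraries, 2308, 2289 and 2314 in those of shH4 and 2274, 2274 and 2352 in those of shH6, with log2 fold changes of 0.25 and 0.25 in shH4 and shH6. Psmc3 was at 4244, 4110.5 and 4260.2 normalized counts in the shControl libraries, 4771, 4872 and 4563 in those of shH4 and 4681, 4747 and 4773 in those of shH6, with log2 fold changes of 0.17 and 0.17. Psmc1 was at 2914, 2869.8 and 2821 normalized counts in the shControl libraries, 3088, 3079 and 3004 in those of shH4 and 3070.5, 3194 and 2950.4 in those of shH6, with log2 fold changes of 0.09 and 0.10, the smallest of the 5. In each of these 3 genes every KD library was above every shControl library.

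Among the non-ATPase subunits, Psmd7, the partner of the 19S deubiquitinase, was at 2028, 2273 and 2274 normalized counts in the shControl libraries, 2924, 2875 and 2859.7 in those of shH4 and 2608, 2667 and 2642 in those of shH6. Psmd7 had log2 fold changes of 0.40 and 0.27, and its libraries separated into 3 bands, shH4 highest and shControl lowest. The Psmd7 difference between the hairpins did not pass the test. Psmd14, which is the 19S deubiquitinase that frees ubiquitin before substrates enter the core, was at 2368, 2379 and 2377 normalized counts in the shControl libraries, 2673, 2472 and 2641 in those of shH4 and 2594, 2547 and 2483 in those of shH6, log2 fold changes of 0.13 and 0.10. Psmd2, a large scaffold that receives ubiquitinated cargo, was at 8724, 9034 and 8898 normalized counts in the shControl libraries, 9869, 10052 and 9681 in those of shH4 and 9468, 9303 and 9259.7 in those of shH6, log2 fold changes of 0.15 and 0.07. Both genes were higher in every KD library than in any shControl library. The lid subunits Psmd6 (0.29 and 0.27), Psmd12 (0.15 and 0.11) and Psmd13 (0.11 and 0.14) also separated upward in both hairpins. Psmd13 shares 10.1% of its exon bases with Sirt3 on the opposite strand, and the use of strand in counting is not given in the sources used here.

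Psmd8, a lid subunit, was the listed 19S subunit that fell, at 3853, 3722 and 3756 normalized counts in the shControl libraries, 3508, 3516 and 3579 in those of shH4 and 3412, 3673 and 3307 in those of shH6. Every KD library of Psmd8 (ENSMUSG00000030591) was below every shControl library. The log2 fold change was -0.10 (SE 0.039, adjusted p = 0.0287) for shH4 and -0.13 (SE 0.039, adjusted p = 0.00679) for shH6. In shH4 that call was lost without shControl replicate 1 (adjusted p = 0.0944) or 3 (0.0543) and without shH4 replicate 1 (0.0693) or 2 (0.0642), with equal column totals (0.0824) and without a trend on the mean (0.0612).

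**Figure D2:**
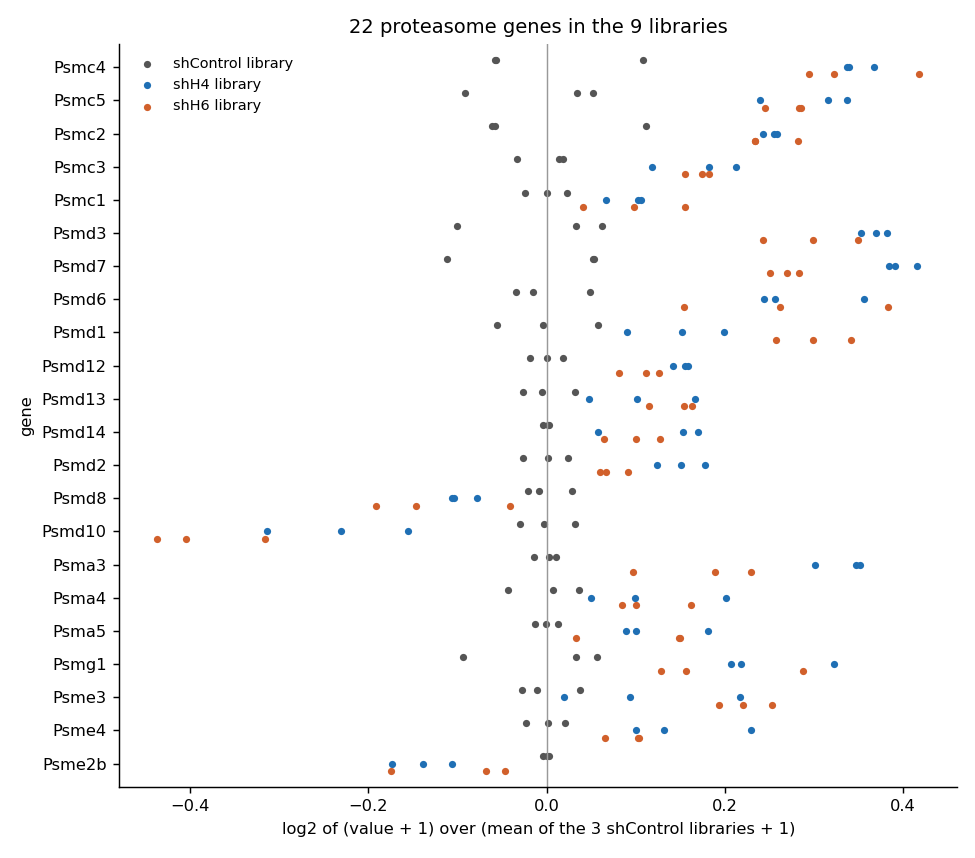
Log2 of each library's value plus 1 over the shControl mean plus 1 (horizontal axis) for the 22 listed proteasome genes (vertical axis), with gray points for shControl, blue for shH4 and orange for shH6 libraries. In 18 genes the 6 KD libraries lie to the right of the 3 shControl libraries, in Psmd8, Psmd10 and Psme2b to the left, and in Psme3 they overlap.

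Outside the 19S subunits, Psmd10 fell, the gene of gankyrin, a chaperone that helps the ATPase ring assemble and binds Psmc4. It was at 667, 679 and 696 normalized counts in the shControl libraries, 611, 547 and 580.0 in those of shH4 and 514, 547 and 503 in those of shH6. All 6 KD libraries of Psmd10 (ENSMUSG00000031429) were below the shControl libraries, and the lowest shH4 and the highest shH6 library both round to 547. It differed from shControl by -0.23 (SE 0.060, adjusted p = 0.00199) for shH4 and -0.39 (SE 0.060, adjusted p = 3.02e-05) for shH6, while shH6 differed from shH4 by -0.15 (SE 0.060, adjusted p = 0.138). Psmg1, a chaperone of 20S core assembly, went the other way, at 455, 497 and 505 normalized counts in the shControl libraries, 561, 565 and 607 in those of shH4 and 593, 531 and 541 in those of shH6. Psmg1 was higher in every KD library than in any shControl library, with log2 fold changes of 0.25 and 0.19. The 3 listed genes of the 20S alpha ring rose, Psma4 by 0.12 and 0.12, Psma5 by 0.12 and 0.11 and Psma3 by 0.33 and 0.17 on the log2 scale in shH4 and shH6.

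The proteasome activators open the 20S core without the 19S particle. Psme3, the nuclear activator of the PA28 family, was at 1365, 1411 and 1348 normalized counts in the shControl libraries, 1598, 1466 and 1393 in those of shH4 and 1572, 1638 and 1601 in those of shH6. In Psme3 (ENSMUSG00000078652) the shH6 libraries lay above shControl and 1 shH4 library lay within the shControl range. The log2 fold change was 0.11 (SE 0.049, adjusted p = 0.0405) for shH4 and 0.22 (SE 0.049, adjusted p = 0.000624) for shH6. The shH4 call was lost under upper quartile scaling (adjusted p = 0.330), without a trend on the mean (0.0689), and without shControl replicate 1 (0.0856) or 3 (0.115) and shH4 replicate 1 (0.252) or 2 (0.0572), with a change of 0.06 without shH4 replicate 1. Psme4, the large nuclear activator also called PA200, was at 2404, 2363 and 2435 normalized counts in the shControl libraries, 2815, 2573 and 2629.8 in those of shH4 and 2579, 2577 and 2513 in those of shH6. All 6 KD libraries of Psme4 were above the shControl libraries, by 0.15 (SE 0.039, adjusted p = 0.00201) for shH4 and 0.09 (SE 0.039, adjusted p = 0.0364) for shH6. The shH6 call of Psme4 was lost without any 1 shControl library (adjusted p from 0.0508 to 0.101), without shH6 replicate 1 (0.0969) or 2 (0.0824), under upper quartile scaling (0.340) and without a trend on the mean (0.0587). Psme2b, a retrocopy of Psme2 whose reads may be shared with the parent gene, was at 3193, 3207 and 3202 normalized counts in the shControl libraries, 2839, 2908 and 2973 in those of shH4 and 3098, 3053 and 2836 in those of shH6. Psme2b was lower in every KD library than in any shControl library, with log2 fold changes of -0.14 (SE 0.039, adjusted p = 0.00354) for shH4 and -0.10 (SE 0.039, adjusted p = 0.0261) for shH6. In shH6 its call was lost without any 1 shControl library (adjusted p from 0.0501 to 0.0601) or without shH6 replicate 3 (0.137, with a change of -0.06). It was also lost with equal column totals (0.157, with a change of -0.05), with library weights (0.0569, with a change of -0.06) and without a trend on the mean (0.0503). Psme1, Psme2 and the inhibitor Psmf1 were not analysed here.

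Levels per length differed more between subunits than between groups. The length used was that of the protein-coding transcript with the longest coding sequence, so a level per kb depends on the transcript chosen. In shControl the 19S subunits ran from 944 normalized counts per kb of transcript in Psmc4 to 3001 in Psmd2. The alpha ring genes Psma4 and Psma5 were at 2116 and 1522 per kb and Psma3 was at 337. The assembly chaperones Psmd10 and Psmg1 were at 476 and 465 per kb, and the activators Psme3 and Psme4 at 516 and 369.8.

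**Figure D3:**
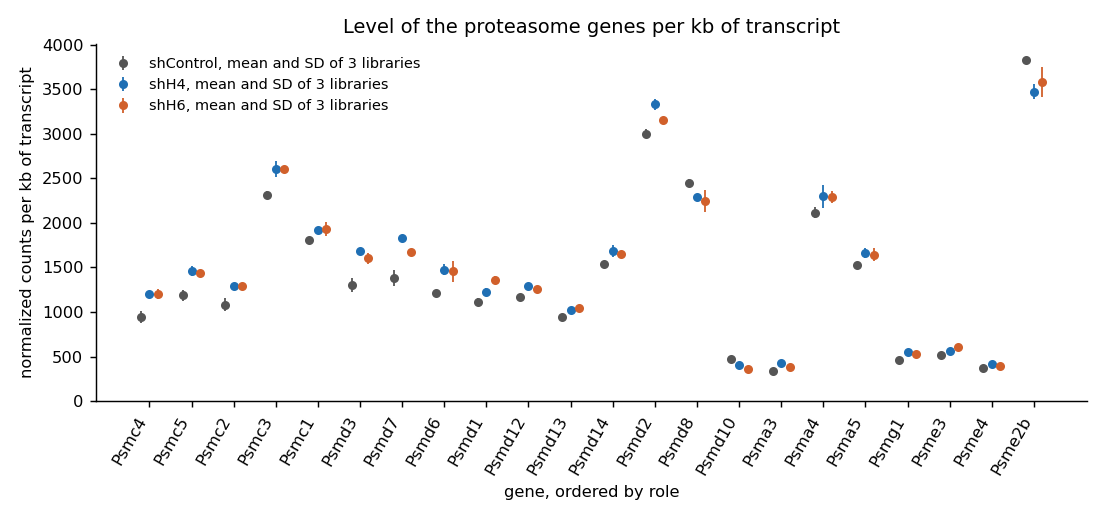
Normalized counts per kb of transcript (vertical axis, from 0) for each listed proteasome gene (horizontal axis, ordered by role), as mean and SD of the 3 libraries in shControl (gray), shH4 (blue) and shH6 (orange). Psmd2 at 3001 and Psme2b at 3824 are the highest in shControl, and Psma3, Psme4, Psmg1, Psmd10 and Psme3 lie lowest.

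The 2 listed E1 genes encode the catalytic subunits of the SUMO and NEDD8 activating enzymes, Uba2 and Uba3, and they moved in opposite directions. Uba2 was at 5469, 5267 and 5262 normalized counts in the shControl libraries, 6191, 6087 and 5876 in those of shH4 and 5729, 6041 and 5598 in those of shH6, and it was higher in every KD library, with log2 fold changes of 0.18 and 0.12. Uba3, which feeds NEDD8 to the cullins, was at 3521, 3485 and 3500.3 normalized counts in the shControl libraries, 3394, 3262 and 3269 in those of shH4 and 3216, 3157 and 3086 in those of shH6. Uba3 (ENSMUSG00000030061) separated into shControl, shH4 and shH6 from high to low, but shH6 against shH4 did not pass (limma adjusted p = 0.254). Its log2 fold change was -0.08 (SE 0.034, adjusted p = 0.0307) for shH4 and -0.15 (SE 0.034, adjusted p = 0.000782) for shH6. The shH4 call of Uba3 was lost in 5 of the 9 leave-outs, those of each shControl library and of shH4 replicates 2 and 3 (adjusted p from 0.0524 to 0.0854), and with equal column totals (0.120). The ubiquitin E1 genes Uba1 and Uba6 were not analysed here.

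Of the 12 listed E2 genes, 9 rose in both hairpins, Ube2h and Ube2t fell in both, and Ube2e2 passed the test only in shH6 (-0.17 and -0.35 in shH4 and shH6, adjusted p = 0.0814 and 0.00188). The table had 47.2% rising and 44.6% falling in both, and under upper quartile scaling the E1 and E2 genes called higher went from 10 to 5 in each hairpin. Ube2k, which builds the chains that mark proteins for the proteasome, was at 677, 863 and 788 normalized counts in the shControl libraries, 1006, 1004 and 1054 in those of shH4 and 927, 917 and 1073 in those of shH6. Ube2k (ENSMUSG00000029203) was higher in every KD library, although its shControl libraries were spread from 677 to 863. It differed from shControl by 0.40 (SE 0.076, adjusted p = 0.000195) for shH4 and 0.33 (SE 0.076, adjusted p = 0.000941) for shH6. Ube2n, which builds chains used in signaling and DNA repair, was at 1476, 1513 and 1502 normalized counts in the shControl libraries, 1849, 1798 and 1860.5 in those of shH4 and 1816, 1749 and 1780.4 in those of shH6. Ube2n showed narrow groups with no overlap and log2 fold changes of 0.29 (SE 0.038, adjusted p = 6.17e-06) for shH4 and 0.25 (SE 0.038, adjusted p = 2.72e-05) for shH6. Ube2e3 was at 798, 737 and 744 normalized counts in the shControl libraries, 964, 911 and 903 in those of shH4 and 976, 985 and 826 in those of shH6. Ube2e3 was higher in every KD library, by 0.28 (SE 0.065, adjusted p = 0.000828) for shH4 and 0.29 (SE 0.065, adjusted p = 0.00077) for shH6, and 1 shH6 library, at 826, was the closest to shControl.

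Ube2h, the E2 of the CTLH ligase, fell most among the conjugating enzymes by the smaller of its 2 changes, at 4328, 4394 and 4155 normalized counts in the shControl libraries, 3497, 3411 and 3707 in those of shH4 and 3492, 3213 and 3376 in those of shH6. The 6 KD libraries of Ube2h (ENSMUSG00000039159) lay below the 3 shControl libraries, with log2 fold changes of -0.28 (SE 0.041, adjusted p = 2.16e-05) for shH4 and -0.35 (SE 0.041, adjusted p = 1.89e-06) for shH6. Ube2t, the E2 of the Fanconi anemia ligase, was at 743, 728 and 737 normalized counts in the shControl libraries, 619.9, 584 and 595 in those of shH4 and 682, 640.1 and 587 in those of shH6. Ube2t was lower in every KD library, with log2 fold changes of -0.30 (SE 0.060, adjusted p = 0.000339) for shH4 and -0.21 (SE 0.060, adjusted p = 0.00368) for shH6. The E2 pair that serves the anaphase-promoting complex, Ube2c and Ube2s, moved upward. Ube2c was at 2259, 2224 and 2225 normalized counts in the shControl libraries, 2483, 2515 and 2334 in those of shH4 and 2455, 2391 and 2489 in those of shH6, and Ube2s was at 3211, 3286 and 3378 normalized counts in the shControl libraries, 3655, 3473 and 3421 in those of shH4 and 3437, 3567 and 3496 in those of shH6. In both genes every KD library was above every shControl library, with log2 fold changes of 0.13 (SE 0.039, adjusted p = 0.00598) for shH4 and 0.13 (SE 0.039, adjusted p = 0.00537) for shH6 for Ube2c. For Ube2s they were 0.10 (SE 0.037, adjusted p = 0.0225) for shH4 and 0.09 (SE 0.037, adjusted p = 0.0308) for shH6. Under upper quartile scaling neither gene passed in either hairpin (adjusted p of 0.110 and 0.0659 for Ube2c, 0.367 and 0.330 for Ube2s). The Ube2s calls were also lost without shControl replicate 1 (adjusted p = 0.0903 in shH4 and 0.116 in shH6), without shH4 replicate 1 (0.112 in shH4), and without shControl replicate 2 (0.0619) or shH6 replicate 2 (0.0970), with library weights (0.0502) and without a trend on the mean (0.0546) in shH6. Ube2c shares 22.8% of its exon bases with Tnnc2 on the opposite strand and Ube2l3, another riser (0.18 and 0.17), shares 28.6% with Ydjc.

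Cullins are the scaffolds of the largest ligase family, and F-box proteins are the substrate receptors that Cul1 carries. Of the 8 annotated cullin genes 5 were listed, of which Cul1, Cul2, Cul3 and Cul5 rose and Cul9 fell in both hairpins, beside 47.2% and 44.6% of the table. Under upper quartile scaling 1 of the 5 was called higher and 1 lower in each hairpin. Cul1 was at 4141, 4037 and 4137 normalized counts in the shControl libraries, 4649.8, 4403 and 4358 in those of shH4 and 4753, 4706 and 4481 in those of shH6. Cul1 (ENSMUSG00000029686) was higher in every KD library, by 0.12 (SE 0.037, adjusted p = 0.00551) for shH4 and 0.18 (SE 0.037, adjusted p = 0.00037) for shH6, and its shH4 call was lost under upper quartile scaling (adjusted p = 0.122). Cul3, the scaffold of BTB-domain receptors, was at 2213, 2186 and 2331 normalized counts in the shControl libraries, 2440.2, 2342 and 2447 in those of shH4 and 2383, 2542 and 2367 in those of shH6. Cul3 was higher in every KD library, by 0.10 (SE 0.041, adjusted p = 0.0248) for shH4 and 0.12 (SE 0.041, adjusted p = 0.0143) for shH6. Its calls were lost under upper quartile scaling (adjusted p = 0.321 and 0.145), in shH4 without shControl replicate 1 (0.0707) or 2 (0.0891) or shH4 replicate 1 (0.0686) or 3 (0.0717), and in shH6 without shControl replicate 2 (0.0563) or shH6 replicate 2 (0.0811). Cul9 was the lowest in level of the 5, at 47.8, 77.1 and 64.2 normalized counts in the shControl libraries, 32.5, 40.7 and 37.2 in those of shH4 and 32.1, 40.9 and 36.2 in those of shH6, and its log2 fold changes were -0.74 and -0.76.

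Most listed F-box genes were lower after Resf1 KD. Of 25 F-box genes, 16 fell in both hairpins, 6 rose in both, and Fbxl19, Fbxo2 and Fbxo42 passed in 1 hairpin each, beside 44.6% of the table falling and 47.2% rising in both. In 16 genes the KD libraries lay wholly below the shControl libraries and in 7 wholly above, against 42.8% and 43.5% of the table. With equal upper quartiles 17 were called lower in each hairpin, and 5 and 7 higher. The median F-box gene moved by 1.26-fold under shH4 and by 1.23-fold under shH6. These genes were also lower in level than the proteasome genes, with a median of 663 against 2431 normalized counts, and the 2 with a mean under 100 were Fbxo15 and Fbxo21.

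Fbxo32, the receptor also called atrogin-1 that rises in wasting muscle, fell most among the ligases by the rule used, at 451, 473 and 454 normalized counts in the shControl libraries, 258, 270.4 and 313 in those of shH4 and 233, 265 and 223 in those of shH6. The highest KD library of Fbxo32 (ENSMUSG00000022358), at 313, was far below the lowest shControl library, at 451. It differed from shControl by -0.71 (SE 0.086, adjusted p = 2.85e-06) for shH4 and -0.94 (SE 0.086, adjusted p = 1.63e-07) for shH6. Fbxo44 was at 266, 218 and 215 normalized counts in the shControl libraries, 136, 157 and 175 in those of shH4 and 169.8, 174 and 177 in those of shH6. Fbxo44 was lower in every KD library, with log2 fold changes of -0.58 (SE 0.108, adjusted p = 0.000186) for shH4 and -0.42 (SE 0.108, adjusted p = 0.00217) for shH6. Fbxl4, a receptor at the mitochondrial surface that restrains mitophagy, was at 823, 851 and 792 normalized counts in the shControl libraries, 584, 581 and 602 in those of shH4 and 637, 642 and 606 in those of shH6. In Fbxl4 (ENSMUSG00000040410) the 3 groups did not overlap, with shH4 lowest, and the log2 fold changes were -0.48 (SE 0.053, adjusted p = 1.23e-06) for shH4 and -0.39 (SE 0.053, adjusted p = 1.03e-05) for shH6. The Fbxl4 difference between the hairpins did not pass (limma adjusted p = 0.347).

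Fbxw7, the receptor that sends Myc and cyclin E to the proteasome, was at 706, 761 and 743 normalized counts in the shControl libraries, 585, 575 and 609 in those of shH4 and 633, 699.9 and 649.7 in those of shH6. Every KD library of Fbxw7 (ENSMUSG00000028086) was below every shControl library, and the shH4 libraries were below the shH6 libraries. It differed from shControl by -0.32 (SE 0.057, adjusted p = 0.000123) for shH4 and -0.16 (SE 0.057, adjusted p = 0.0163) for shH6, with a difference between hairpins that did not pass (adjusted p = 0.0957). The shH6 call was lost with equal column totals (adjusted p = 0.0620) and without shControl replicate 2 (0.0621) or shH6 replicate 1 (0.0752). Fbxo15, the lowest F-box gene in level, was at 18.4, 24.9 and 18.8 normalized counts in the shControl libraries, 7.88, 12.1 and 8.8 in those of shH4 and 9.18, 10.5 and 7.48 in those of shH6, log2 fold changes of -1.04 and -1.11.

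Among the F-box genes that rose, Fbxo17 was at 262, 293 and 286 normalized counts in the shControl libraries, 358, 353 and 395 in those of shH4 and 376, 322 and 374 in those of shH6. Fbxo17 was higher in every KD library, by 0.39 (SE 0.081, adjusted p = 0.000403) for shH4 and 0.35 (SE 0.081, adjusted p = 0.001) for shH6. Fbxo5, also called Emi1, an inhibitor of the anaphase-promoting complex, was at 989, 1061 and 1077 normalized counts in the shControl libraries, 1273, 1205 and 1159.9 in those of shH4 and 1245, 1226 and 1193 in those of shH6. Fbxo5 (ENSMUSG00000019773) was higher in every KD library, by 0.22 (SE 0.049, adjusted p = 0.000833) for shH4 and 0.23 (SE 0.049, adjusted p = 0.000542) for shH6. The other 4 that rose in both hairpins were Fbxo21 (0.34 and 0.62 in shH4 and shH6), Fbxo30 (0.28 and 0.27), Fbxo33 (0.25 and 0.32) and Fbxo45 (0.18 and 0.23).

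**Figure D4:**
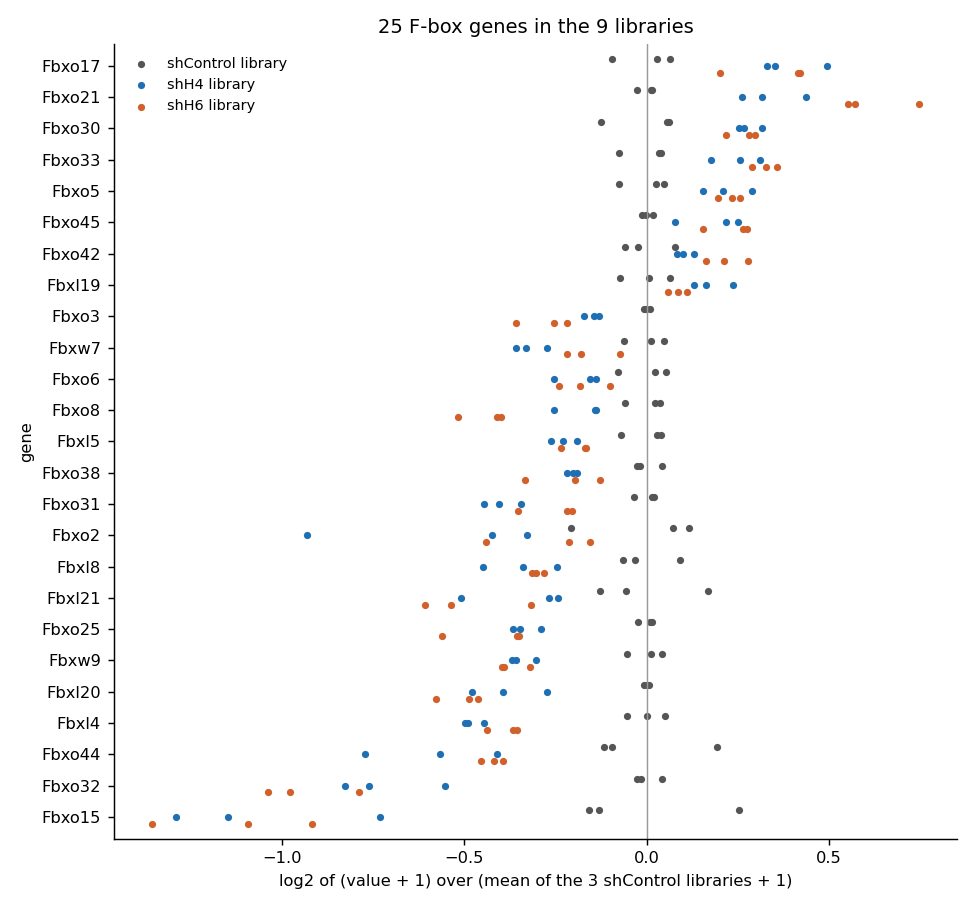
Log2 of each library's value plus 1 over the shControl mean plus 1 (horizontal axis) for the 25 listed F-box genes (vertical axis, from the highest to the lowest change), with gray points for shControl, blue for shH4 and orange for shH6 libraries. The KD libraries lie to the left of the shControl libraries in 16 genes and to the right in 7, and Fbxo15 and Fbxo32 reach the lowest values.

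RING finger ligases bring a charged E2 to the substrate directly, and the 27 listed Rnf genes were divided, with 16 higher and 8 lower in both hairpins, beside 47.2% and 44.6% of the table. With equal upper quartiles 11 were called higher in each hairpin, where 17 and 16 had been, and 9 and 10 lower. Rnf130, Rnf14 and Rnf146 passed in 1 hairpin each. Rnf126, a ligase of the pathway that clears misplaced membrane proteins, was at 679, 756 and 743 normalized counts in the shControl libraries, 984, 1059 and 937 in those of shH4 and 929, 956 and 1089 in those of shH6. Rnf126 (ENSMUSG00000035890) was higher in every KD library, by 0.45 (SE 0.066, adjusted p = 1.84e-05) for shH4 and 0.45 (SE 0.066, adjusted p = 1.95e-05) for shH6. Rnf219, a ligase that acts on the origin recognition complex, was at 724, 702 and 719 normalized counts in the shControl libraries, 905, 908 and 842 in those of shH4 and 963, 938 and 864 in those of shH6. Rnf219 was higher in every KD library, by 0.31 (SE 0.054, adjusted p = 0.00011) for shH4 and 0.36 (SE 0.054, adjusted p = 2.08e-05) for shH6. Over both hairpins the Rnf genes ran from -0.67 to 0.76 on the log2 scale. Both ends came from genes of low level, Rnf152 (mean 37.4 normalized counts) and Rnf225 (56.2). The KD and shControl libraries of Rnf225 overlapped.

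Rnf2, which places ubiquitin on histones as part of Polycomb repressive complex 1, was at 1950.2, 1896 and 1961 normalized counts in the shControl libraries, 2141, 2039.8 and 2099.8 in those of shH4 and 2188, 2341 and 2151 in those of shH6. Rnf2 separated into shControl, shH4 and shH6 from low to high, with log2 fold changes of 0.11 (SE 0.041, adjusted p = 0.0163) for shH4 and 0.20 (SE 0.041, adjusted p = 0.000353) for shH6. Between the hairpins Rnf2 did not pass (limma adjusted p = 0.224). In shH4 the Rnf2 call was lost under upper quartile scaling (adjusted p = 0.230) and without shControl replicate 2 (0.0573) or shH4 replicate 1 (0.0595). Rnf168, which marks histones around DNA breaks, was at 1077, 1104 and 1070.0 normalized counts in the shControl libraries, 1272, 1141 and 1172 in those of shH4 and 1191, 1253 and 1172 in those of shH6. Rnf168 was higher in every KD library, by 0.14 (SE 0.049, adjusted p = 0.0139) for shH4 and 0.15 (SE 0.049, adjusted p = 0.00829) for shH6, while its paralog Rnf169 was lower in every KD library, with log2 fold changes of -0.28 and -0.25. The Rnf168 calls were lost under upper quartile scaling (adjusted p = 0.135 and 0.0606), and in shH4 without shH4 replicate 1 (0.0857). Rnf114, named here after its values were seen, was among the Rnf genes that fell, at 1817, 1667 and 1708 normalized counts in the shControl libraries, 1206, 1258 and 1311 in those of shH4 and 1394, 1398 and 1239.5 in those of shH6, with log2 fold changes of -0.46 and -0.37.

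The HECT ligases Ube3b (0.20 and 0.12 in shH4 and shH6) and Ube3c (0.20 and 0.20) and the U-box ligase Ube4a (0.19 and 0.12), which extends chains begun by other ligases, were higher in both hairpins. Ube2cbp, a HECT-like ligase despite its symbol, was at 73.8, 71.1 and 60.9 normalized counts in the shControl libraries, 122, 119 and 114 in those of shH4 and 81.9, 106 and 92.3 in those of shH6, a low level, with log2 fold changes of 0.78 and 0.44.

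Of 20 listed USP genes, 13 rose and 5 fell in both hairpins, and of 4 OTU genes 3 rose and Otub2 fell (-0.42 and -0.50), beside 47.2% of the table rising and 44.6% falling. Under upper quartile scaling 13 of the 24 deubiquitinases were called higher and 7 lower in each hairpin. Usp19 and Usp30, the latter a mitochondrial enzyme, passed in 1 hairpin each. Usp42 was at 272, 322 and 291 normalized counts in the shControl libraries, 393, 402 and 381 in those of shH4 and 414, 395 and 398 in those of shH6. Usp42 (ENSMUSG00000051306) was higher in every KD library, by 0.41 (SE 0.073, adjusted p = 0.000112) for shH4 and 0.45 (SE 0.073, adjusted p = 5.07e-05) for shH6. Usp12, an enzyme activated by WD-repeat partners, was at 1066, 1303 and 1169.7 normalized counts in the shControl libraries, 1574, 1508 and 1569 in those of shH4 and 1606, 1517 and 1625 in those of shH6. Usp12 was higher in every KD library, by 0.40 (SE 0.059, adjusted p = 2.02e-05) for shH4 and 0.43 (SE 0.059, adjusted p = 9.48e-06) for shH6, with shControl libraries spread from 1066 to 1303. Usp31 was at 1926, 1788 and 1756 normalized counts in the shControl libraries, 2311, 2207 and 2155 in those of shH4 and 2247, 2229 and 2275 in those of shH6. Usp31 was higher in every KD library, by 0.29 (SE 0.043, adjusted p = 2.25e-05) for shH4 and 0.30 (SE 0.043, adjusted p = 1.21e-05) for shH6.

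Usp7, which removes ubiquitin from Mdm2 and p53, was at 3350.2, 3433 and 3422 normalized counts in the shControl libraries, 3999, 3961 and 3964 in those of shH4 and 3854, 3943 and 4202 in those of shH6. Usp7 (ENSMUSG00000022710) was higher in every KD library, by 0.22 (SE 0.037, adjusted p = 5.4e-05) for shH4 and 0.23 (SE 0.037, adjusted p = 3.68e-05) for shH6. Usp37, an enzyme that stabilizes cyclin A in the cell cycle, was at 1356, 1354 and 1304 normalized counts in the shControl libraries, 1589, 1507 and 1437 in those of shH4 and 1541, 1533 and 1468 in those of shH6. Usp37 was higher in every KD library, by 0.17 (SE 0.046, adjusted p = 0.0023) for shH4 and 0.18 (SE 0.046, adjusted p = 0.00186) for shH6. Usp14, which trims chains on the proteasome itself, had log2 fold changes of 0.18 and 0.09 but shares 26% of its exon bases with Thoc1 on the opposite strand. In all, 9 of the 122 genes share 10% or more of their exon bases with another gene and are uncertain, the others being Psmd13, Ube2c, Ube2l3, Rnf139, Rnf24, Rnf8, Rnf146 (76.8%, with Echdc1 and Gm30698) and Usp49 (51.2%, with Tomm6 and Gm20517).

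Usp35, which has been linked to mitochondria, fell most, at 257, 222 and 245 normalized counts in the shControl libraries, 165, 164 and 162 in those of shH4 and 149, 142 and 143 in those of shH6. The 3 groups of Usp35 (ENSMUSG00000035713) did not overlap, with shH6 lowest, and the log2 fold changes were -0.55 (SE 0.089, adjusted p = 4.6e-05) for shH4 and -0.73 (SE 0.089, adjusted p = 2.89e-06) for shH6. Its difference between the hairpins did not pass (limma adjusted p = 0.268). Usp3, which removes ubiquitin from histones, was at 1630.4, 1442 and 1469.9 normalized counts in the shControl libraries, 1296, 1268 and 1369 in those of shH4 and 1288, 1369 and 1127 in those of shH6. Usp3 was lower in every KD library, with log2 fold changes of -0.21 (SE 0.064, adjusted p = 0.00696) for shH4 and -0.27 (SE 0.064, adjusted p = 0.00127) for shH6. Usp11 was at 615, 584 and 582 normalized counts in the shControl libraries, 464, 462 and 490.0 in those of shH4 and 515, 514 and 524 in those of shH6. Usp11 was lower in every KD library, with log2 fold changes of -0.33 (SE 0.057, adjusted p = 8.95e-05) for shH4 and -0.20 (SE 0.057, adjusted p = 0.00434) for shH6, with shH4 below shH6. That difference between the hairpins did not pass (limma adjusted p = 0.182). Usp28, Usp36 and Otub1 were not analysed here, nor were Ube2m, Ube2l6, Cul4a and Cul4b.

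The comparison of shH6 with shH4 was taken from the same model of all 9 libraries, so the shControl libraries enter its estimate of the spread. The table holds only genes with the same sign in both hairpins, so genes on which the hairpins had opposite signs are not in this comparison. Of the 122 pathway genes, 5 differed between the hairpins, 2 higher and 3 lower in shH6, beside 8.26% of the table (3.89% higher and 4.38% lower), and the 5 are 4.10% of the pathway genes. Rnf130, a membrane RING ligase, was at 464, 433 and 449 normalized counts in the shControl libraries, 419, 424 and 427 in those of shH4 and 335, 337 and 308 in those of shH6. Rnf130 was lower in each shH6 library than in any other library, with a log2 difference from shH4 of -0.37 (SE 0.065, adjusted p = 0.00159), while against shControl it passed in shH6 only (-0.08 (SE 0.065, adjusted p = 0.227) for shH4 and -0.46 (SE 0.065, adjusted p = 1.4e-05) for shH6). Fbxo8 was at 574, 579.7 and 543 normalized counts in the shControl libraries, 513, 474 and 512 in those of shH4 and 395, 428 and 425 in those of shH6. Its log2 difference between shH6 and shH4 was -0.26 (SE 0.063, adjusted p = 0.0139), and it was below shControl in both hairpins (-0.18 and -0.44).

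Psmd1, the largest subunit of the 19S base, was at 3316, 3588 and 3437 normalized counts in the shControl libraries, 3957, 3830.4 and 3670.1 in those of shH4 and 4120.2, 4370.2 and 4242 in those of shH6. All 3 shH6 libraries of Psmd1 were above the shH4 libraries, by 0.15 (SE 0.040, adjusted p = 0.0245), and both hairpins were above shControl (0.15 and 0.30). Psma3, an alpha ring subunit, was at 960.0, 949 and 965 normalized counts in the shControl libraries, 1222, 1219 and 1180.2 in those of shH4 and 1092, 1124 and 1024 in those of shH6. Psma3 was higher in shH4 than in shH6, with a log2 difference of -0.16 (SE 0.047, adjusted p = 0.0413), and both were above shControl. Otud4, a deubiquitinase with a role in DNA alkylation repair, was at 5269, 5470.0 and 5340.0 normalized counts in the shControl libraries, 6219.7, 5894 and 5936 in those of shH4 and 6547, 6426 and 6516 in those of shH6. Otud4 differed between shH6 and shH4 by 0.11 (SE 0.033, adjusted p = 0.0495).

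These 5 calls were not equally firm. Rnf130 kept its call in all 18 alternatives. Fbxo8 lost it without shH4 replicate 1 (adjusted p = 0.0607) or 3 (0.0586) or shH6 replicate 1 (0.0740), and its shH4 call against shControl without shH4 replicate 2 (0.0649). Psmd1 lost its call without shH4 replicate 2 (0.0581) or 3 (0.126) or shH6 replicate 2 (0.0971), and without a trend on the mean (0.0943). Psma3 and Otud4 each lost it in 12 of 18 alternatives, with adjusted p up to 0.135 for Psma3 and 0.156 for Otud4. Leaving out 1 of the 9 libraries left between 1 and 4 pathway genes called, the fewest without shH4 replicate 3.

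**Figure D5:**
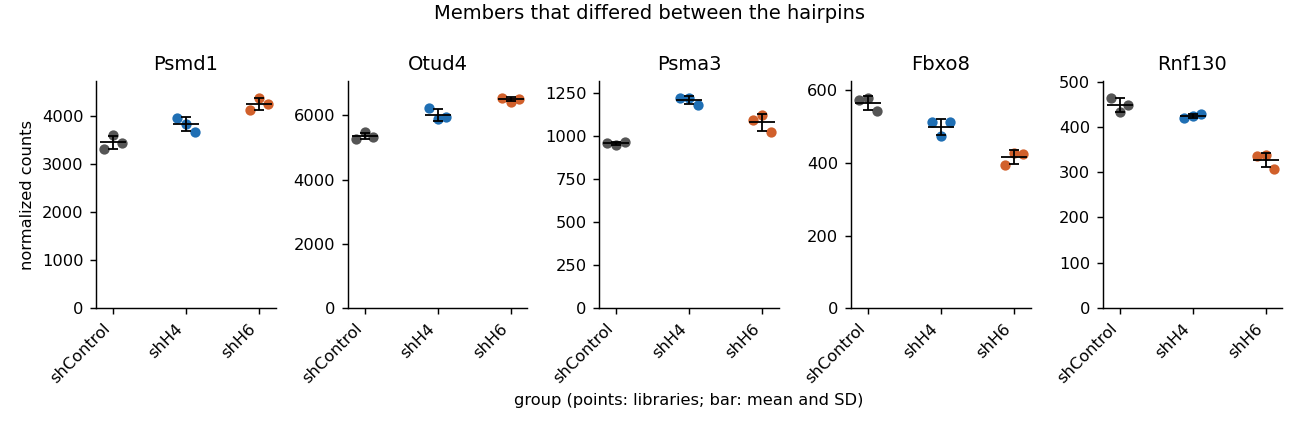
Normalized counts (vertical axis, from 0) in each library (points) of shControl (gray), shH4 (blue) and shH6 (orange) for the 5 genes that differed between the hairpins, with the mean and SD of 3 libraries as bars. In each gene the 3 shH6 points lie wholly above or wholly below the 3 shH4 points, and in Rnf130 the shH4 points lie just under shControl. The genes were picked by a test on these libraries, so the separation adds no support.

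Other genes of the pathway, outside the symbols used for the list, were counted by role from a second list of 156 genes, of which 58 were in the table. Of these 58, 38 rose and 17 fell in both hairpins, beside the 47.2% and 44.6% of the table. Ubb, a polyubiquitin gene, was at 5748, 5357 and 5845 normalized counts in the shControl libraries, 5957, 6330.5 and 5759 in those of shH4 and 6134, 6017 and 6366 in those of shH6, and its KD and shControl libraries overlapped. Ubb differed by 0.09 (SE 0.042, adjusted p = 0.0485) for shH4 and 0.13 (SE 0.042, adjusted p = 0.00912) for shH6, and its calls were lost under upper quartile scaling (adjusted p = 0.494 and 0.0890). In shH4 the Ubb call was lost with the replicate number as a block (0.0618), with library weights (0.0743), without a trend on the mean (0.110) and without shControl replicate 1 (0.0501) or 2 (0.246), shH4 replicate 1 (0.0708) or 2 (0.243) or shH6 replicate 1 (0.0612), and in shH6 without shControl replicate 2 (0.0574). The shH4 change was 0.05 without shControl replicate 2 or shH4 replicate 2, and 0.03 under upper quartile scaling. Ubb has processed copies in the genome, so its reads may be split between copies.

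Nfe2l1, the transcription factor known to raise proteasome genes when the proteasome is impaired, was at 5982, 6143 and 5965 normalized counts in the shControl libraries, 5272, 5151 and 5195 in those of shH4 and 5058, 4939 and 5084 in those of shH6. The 3 groups of Nfe2l1 (ENSMUSG00000038615) did not overlap, with shControl highest, and the log2 fold changes were -0.21 (SE 0.032, adjusted p = 2.45e-05) for shH4 and -0.26 (SE 0.032, adjusted p = 2.76e-06) for shH6. For Nfe2l1 the difference between the hairpins did not pass (limma adjusted p = 0.397). Ddi2, the protease that processes that factor, had log2 fold changes of 0.07 and 0.21 with overlap between shH4 and shControl libraries, and passed in shH6 only (adjusted p = 0.148 in shH4). Its shH6 level exceeded that of shH4 by 0.15 (SE 0.043, adjusted p = 0.0421). Keap1, the cullin adaptor of the related factor Nfe2l2, had 0.17 and 0.12. Adrm1, a ubiquitin receptor of the 19S particle, was at 794, 919 and 769 normalized counts in the shControl libraries, 993, 965 and 873 in those of shH4 and 948, 1013 and 987 in those of shH6, with overlap between KD and shControl libraries. Adrm1 differed by 0.19 (SE 0.066, adjusted p = 0.0124) for shH4 and 0.25 (SE 0.066, adjusted p = 0.00231) for shH6, and the shH4 call was lost under upper quartile scaling (adjusted p = 0.0708) and without shControl replicate 3 (0.0716) or shH4 replicate 1 (0.0613).

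Of 9 listed shuttle and segregase genes, 7 rose and 2 fell in both hairpins, beside 47.2% and 44.6% of the table. The fallers were Sqstm1 (-0.08 and -0.10), an autophagy receptor, and Ubxn1 (-0.15 and -0.23), a cofactor of Vcp. Vcp, the ATPase that pulls ubiquitinated proteins out of complexes, was at 6906, 7220.4 and 7169 normalized counts in the shControl libraries, 8811, 8586 and 8399 in those of shH4 and 8159.9, 8205 and 8405 in those of shH6. Vcp was higher in every KD library, by 0.28 (SE 0.033, adjusted p = 2.67e-06) for shH4 and 0.22 (SE 0.033, adjusted p = 2.62e-05) for shH6. Ubqln2, a shuttle that carries ubiquitinated proteins to the proteasome, was at 409, 429 and 529 normalized counts in the shControl libraries, 555, 641 and 738 in those of shH4 and 636, 657 and 852 in those of shH6. Ubqln2 was higher in every KD library, by 0.50 (SE 0.115, adjusted p = 0.000973) for shH4 and 0.65 (SE 0.115, adjusted p = 0.000116) for shH6, with a wide spread inside each group.

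Of 7 listed partners of cullin ligases, 6 rose and 1 fell in both hairpins, beside 47.2% and 44.6% of the table. All 4 listed genes of the COP9 signalosome, which removes NEDD8 from cullins, rose in both hairpins, beside 47.2% of the table. Of 5 listed subunits of the anaphase-promoting complex, 4 passed upward in each hairpin and 3 in both. Cand1, the exchange factor of cullin receptors, was at 6668, 6704 and 6515 normalized counts in the shControl libraries, 7284, 7197 and 7203 in those of shH4 and 7135, 6997 and 6909.6 in those of shH6. Cand1 was higher in every KD library, by 0.12 (SE 0.031, adjusted p = 0.00169) for shH4 and 0.08 (SE 0.031, adjusted p = 0.0206) for shH6. Under upper quartile scaling Cand1 passed in neither hairpin (adjusted p = 0.0676 and 0.369), and its shH6 call was lost without shControl replicate 3 (0.0886) or shH6 replicate 1 (0.0900). Ccnf, the founding F-box protein, which does not carry the Fbx symbol, was at 1650.2, 1715 and 1759 normalized counts in the shControl libraries, 2302, 2272 and 2252 in those of shH4 and 2330.0, 2219 and 2233 in those of shH6. Ccnf was higher in every KD library, by 0.41 (SE 0.039, adjusted p = 2.04e-07) for shH4 and 0.40 (SE 0.039, adjusted p = 2.66e-07) for shH6. Dcun1d3, which controls NEDD8 transfer to cullins, was at 482, 516 and 599 normalized counts in the shControl libraries, 407, 386 and 433 in those of shH4 and 422, 432 and 435 in those of shH6. Dcun1d3 was lower in every KD library, with log2 fold changes of -0.38 (SE 0.077, adjusted p = 0.000364) for shH4 and -0.30 (SE 0.077, adjusted p = 0.0018) for shH6.

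Of 10 other listed ligases, 7 rose and 3 fell in both hairpins, beside 47.2% and 44.6% of the table. Uhrf1, the ligase that keeps DNA methylation through replication, was at 4893, 5663 and 5387 normalized counts in the shControl libraries, 7120.2, 7174 and 7348 in those of shH4 and 7677, 7408 and 7853 in those of shH6. Uhrf1 was higher in every KD library, by 0.44 (SE 0.045, adjusted p = 4e-07) for shH4 and 0.53 (SE 0.045, adjusted p = 6.62e-08) for shH6. Mdm2, the ligase of p53, was at 3499.9, 3511 and 3469 normalized counts in the shControl libraries, 3081, 2977 and 2976 in those of shH4 and 2676, 2766 and 2639 in those of shH6. Mdm2 (ENSMUSG00000020184) separated into shControl, shH4 and shH6 from high to low, with log2 fold changes of -0.21 (SE 0.035, adjusted p = 5.11e-05) for shH4 and -0.38 (SE 0.035, adjusted p = 1.75e-07) for shH6, and shH6 was below shH4 by -0.16 (SE 0.035, adjusted p = 0.00765). Of 10 other listed genes grouped as deubiquitinases, 5 rose and 5 fell, which is near the table's own 47.2% and 44.6%. That group is mixed, so its split is no result about deubiquitinases. It includes the SUMO proteases Senp1, which rose, and Senp7, which fell, and the eIF3 subunits Eif3f and Eif3h, which fell. Mindy2, which cleaves long chains, was at 2071, 1977 and 2042 normalized counts in the shControl libraries, 1402, 1385 and 1475 in those of shH4 and 1591, 1572 and 1512 in those of shH6. Mindy2 was lower in every KD library, with log2 fold changes of -0.51 (SE 0.042, adjusted p = 4.15e-08) for shH4 and -0.38 (SE 0.042, adjusted p = 9.34e-07) for shH6.

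The genes excluded from the list for their interferon response were divided too. Psmb10, an immunoproteasome subunit, was at 746, 722 and 744 normalized counts in the shControl libraries, 857, 942 and 871 in those of shH4 and 929, 1003 and 905 in those of shH6, higher in every KD library, by 0.27 (SE 0.055, adjusted p = 0.000343) for shH4 and 0.36 (SE 0.055, adjusted p = 2.72e-05) for shH6. Usp18 was at 147, 110.3 and 142 normalized counts in the shControl libraries, 99.5, 78 and 97.8 in those of shH4 and 113, 94.4 and 79.8 in those of shH6, near the low end of the levels given here, with overlap between shH6 and shControl libraries. Usp18 fell by 0.53 on the log2 scale in shH4 and by 0.47 in shH6 (limma adjusted p = 0.00413 and 0.00784). Isg15, the ubiquitin-like modifier that Usp18 removes, was at 338, 298 and 335 normalized counts in the shControl libraries, 191, 226 and 189 in those of shH4 and 269, 258 and 232 in those of shH6. Isg15 was lower in every KD library, with log2 fold changes of -0.68 (SE 0.093, adjusted p = 1.01e-05) for shH4 and -0.35 (SE 0.093, adjusted p = 0.00232) for shH6, and shH6 was above shH4 by 0.33 (SE 0.093, adjusted p = 0.0393). Of 18 interferon response genes 11 were listed, 9 with a negative and 2 with a positive sign in both hairpins (51.2% of all listed genes had a positive sign), and their summed levels ran from 4802 to 4939 in shControl, 4283 to 4496 in shH4 and 4250 to 4367 in shH6.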

How the data were processed

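Total RNA of the 9 libraries was prepared with a stranded kit. The authors aligned the reads with STAR 2.7.8a in Partek Flow (mm39 in the submitters' processing notes), normalized by median ratio and tested with DESeq2. The annotation, how reads were counted and whether strand was used are not given in the sources used here. The deposited values are a signal per gene: read counts after division by each library's size factor. Of values below 150, 71.3% to 76.4% per library were whole multiples of 1 read (tolerance 0.005 reads), so whole reads were not recovered and no count model was run.

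The test was that of limma 3.58.1 (R 4.3.3) on log2(value + 1), in a model of all 9 libraries with a mean per group and a trend on the mean, two-sided, with Benjamini-Hochberg adjustment over 5301 genes and a threshold of 0.05. Symbols and lengths came from GENCODE M21, which matched 5258 genes by identifier, and promoter windows came from RefSeq. The pipeline was tested on simulated data. Genes were named by a rule: preset genes of each class, and in each of 4 classes the 3 that rose and the 3 that fell most by the smaller of the 2 changes, among genes called in both hairpins without overlap and with a mean of at least 100, plus those that differed between hairpins. Others were added by role after their values were seen, and a few named by the rule are not reported here. The members and lists were chosen with earlier results of these data known. The alternatives were 2 other scalings, pseudocounts of 0.5 and 5, a filter at 10, only 2 groups, a replicate block, library weights, no trend, and leaving out each library. Replicates are dishes, so p-values measure the spread between dishes.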

Additional observations from a re-analysis of the deposited data

Results flagged for a closer look

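The changes against shControl differed between the 2 hairpins for 5 genes, by a test of shH6 against shH4 over all 9 libraries (limma, adjusted p under 0.05). They are 4.10% of the 122 pathway genes, below the 8.26% of all listed genes called. The log2 difference of shH6 from shH4 was -0.37 for the RING ligase Rnf130, -0.26 for the F-box gene Fbxo8 and -0.16 for the 20S subunit Psma3. It was 0.15 for the 19S subunit Psmd1 and 0.11 for the deubiquitinase Otud4. In each of the 5 genes the 3 shH6 libraries lay on one side of the 3 shH4 libraries. The genes were picked by a test on those libraries, so this separation adds no support. Psma3 and Otud4 each lost the call in 12 of 18 alternatives.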

How the results depend on the processing

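None of the 140 results recomputed (named genes, counts and class medians against shControl, and the calls between hairpins) changed sign under the 18 alternatives. Of 2520 values recomputed, 2358 gave the same call, or a count or median close to the first, and 114 calls of single genes were lost. Upper quartile scaling cut the calls upward to 52 in shH4 and 50 in shH6, and the class medians in shH4 and shH6 to 0.091 and 0.11 for proteasome genes, 0.062 and 0.072 for E1 and E2 enzymes, 0.056 and 0.058 for ligases and 0.11 and 0.13 for deubiquitinases. Equal column totals raised them to 0.15 and 0.16 for E1 and E2 enzymes, 0.14 and 0.15 for ligases and 0.20 and 0.23 for deubiquitinases, and to 0.20 for proteasome genes in shH6. Library weights gave 0.091 for ligases in shH6. With 1 library left out, the median ran from 0.095 to 0.15 for E1 and E2 enzymes in shH4 and from 0.094 to 0.12 for ligases in shH4.

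Of the pathway genes, shH6 differed from shH4 in 5, in 3 with only those 2 groups fitted or without a trend on the mean (1 higher in each), in 13 with library weights (10 lower), and in 1 to 4 with 1 library left out (0 to 2 higher, 1 to 4 lower). Of all listed genes, 8.26% were called at first, and 7.13%, 6.06%, 12.9% and 5.41% to 7.96% under those settings. With a filter at 10 in every library, 1 was higher, where 8.09% of all genes kept were called. The cause was not tested. With the replicate number as a block, 3 differed, 1 of them higher, beside 7.64% of all listed genes called. The numbers did not pair the samples: of 9 correlations between same-numbered libraries, from -0.155 to 0.108, 1 was over 0.1. The depth of 10.5 to 19.9 M estimated reads limits the low genes most, 7 of 122 with a mean under 100.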
